A study of Mus musculus with 2 samples.

Results

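The genes described here are 10 immediate early and dissociation response genes: the AP-1 subunits Fos, Fosb, Jun and Junb, the zinc finger factor Egr1, the phosphatase Dusp1, the early response gene Ier2, the RNA decay factor Zfp36, the antiproliferative gene Btg2 and the inducible heat shock protein 70 gene Hspa1a. They were chosen by name, with earlier results of these data known, and followed in bone marrow single-cell RNA-sequencing (sc-RNA-seq) tables. Where counts of these genes are set beside shares of all genes below, they are thus not counts of an independently chosen list. Of the 10 genes, 9 were listed in both tables, among 13211 genes listed in all. Hspa1a was listed in neither table, nor was Hspa1b, its near-identical copy, so no value is given for either.

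Immediate early genes are transcribed within minutes of a stimulus from promoters that already carry their activating factors, without new protein synthesis. Kinase cascades act on serum response factor with its Elk partners and on Creb1, and the early products then switch on later genes or shut the signal off. In marrow these genes follow cytokine, adhesion and stress signals, and several of them are also known to be induced while tissue is taken apart into single cells.

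The Col1a1fspKO library came from Fsp1-Cre;Col1a1flox/flox mice, in which Cre under the Fsp1 (S100a4) promoter deletes Col1a1, the gene of the type I collagen α1 chain. The WT library came from Cre-negative;Col1a1flox/flox mice, which carry the same floxed alleles. Mice of both groups were 2 months old, and marrow was flushed from femur and tibia, pooled from 2 mice per group and sorted for live cells. There was 1 library per genotype, so no test between genotypes was possible, and genotype and library handling cannot be told apart. All intervals below are 95% intervals of counting error only.

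The Col1a1fspKO library held 8647722 unique molecular identifiers (UMIs) over 1309 cells and the WT library 8624469 UMIs over 1169 cells, with medians of 4954 and 5534 UMIs per cell. The lowest UMI count of a cell was 2540 in Col1a1fspKO and 2909 in WT. A UMI minimum shared by both libraries, 2909, would remove 155 cells, all of them Col1a1fspKO cells with no WT counterpart at that depth. Col1a1 had 3 UMIs in Col1a1fspKO and was not listed in WT, and as its 3′ tags lie outside the deleted exons it checks neither label, and S100a4 had 2026 and 2184 UMIs. Cells were assigned to 11 types by marker genes, none of which is a member, and the names below stand for these gates. In all, 2241 of 2478 cells passed a gate, 217 lay too close to a second lineage and 20 reached no lineage. The 217 and the 20 are the cells called outside the gates below. Of the 2241, 2209 were in the 11 types. The rest fell to lineages with fewer than 20 cells in a library, which count in all cells and among the other gated cells but are not described. Of the 71 listed markers of the 11 types, 69 were higher in their own gate than in the other gated cells in both libraries. The exceptions were 2 of the 5 preneutrophil markers. The gates were made from these same markers, so this count is no independent check of the names. Neutrophil and B cell stages are ranges along a gradient: 611 of 1401 staged cells had their best and next stage scores within 0.5 SD. S100a8 outside the neutrophil and progenitor gates stood at 1.25% of its neutrophil level in Col1a1fspKO and 0.851% in WT. The haemoglobin gene Hba-a1 outside the erythroid gate stood at 2.81% and 2.49% of its erythroid level. The source of these transcripts, such as free RNA or doublets, was not tested, and their levels differed by gate. In preneutrophils Hba-a1 was 5967 CPM (defined below) in Col1a1fspKO and 1453 CPM in WT. In immature and mature B cells Hba-a1 was 1383 and 3624 CPM, and S100a8 was 4271 and 1717 CPM. The part of such transcripts in the ratios between libraries was not tested. The barcodes shared by both libraries numbered 2.

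RefSeq promoter windows (GRCm38.p6, the build that the labels call mm10) were found for 8 of the 10 genes, while Egr1 and Ier2 had no entry. In the 250 bases before the transcription start, the cAMP response half-element TGACG, the core bound by Creb1 and its relatives, occurred on either strand in 5 of the 8 windows (Fos, Fosb, Junb, Dusp1 and Btg2), against 17.8% of all 32851 windows of the same length. The full palindromic element TGACGTCA, which contains the half-element on both strands, occurred in Dusp1 and Btg2 and in 1.55% of all windows. Among the members with at least 50 UMIs over both libraries, Fos had the largest ratio between the libraries. Dusp1 and Btg2 held the full element. The windows of Fos, Dusp1 and Btg2 are shown. Each is written 5′ to 3′ toward the start, and capitals mark half-elements and full elements.
Fos, chr12:85473640-85473889, plus strand: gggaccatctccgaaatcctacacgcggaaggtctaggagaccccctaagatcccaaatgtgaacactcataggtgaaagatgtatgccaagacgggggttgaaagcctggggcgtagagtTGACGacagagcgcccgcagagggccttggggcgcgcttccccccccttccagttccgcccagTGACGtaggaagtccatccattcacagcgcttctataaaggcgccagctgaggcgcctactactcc
Dusp1, chr17:26508473-26508722, minus strand: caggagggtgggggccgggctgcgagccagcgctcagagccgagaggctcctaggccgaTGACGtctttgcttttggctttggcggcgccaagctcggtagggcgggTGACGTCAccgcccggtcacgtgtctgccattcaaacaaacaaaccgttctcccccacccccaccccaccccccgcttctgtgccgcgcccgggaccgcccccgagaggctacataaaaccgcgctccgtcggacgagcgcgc
Btg2, chr1:134079156-134079405, minus strand: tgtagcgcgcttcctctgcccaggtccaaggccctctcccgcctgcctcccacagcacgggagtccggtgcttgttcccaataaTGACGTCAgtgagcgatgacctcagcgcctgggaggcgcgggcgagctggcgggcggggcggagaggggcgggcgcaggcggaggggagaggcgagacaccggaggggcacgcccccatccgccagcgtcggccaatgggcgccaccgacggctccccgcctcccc

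Fos carried half-elements at 129 to 125 and 66 to 62 bases before its start and the letters TATAAA at 33 to 28 bases. The letters TATAAA were held by 12.4% of all windows and by no other of the 8 windows found. Dusp1 held its full element at 143 to 136 bases and Btg2 at 166 to 159 bases before the start. A CArG box, the site of serum response factor, was found by its pattern in the Zfp36 window alone and in 1.47% of all windows. Neither the AP-1 site TGANTCA (6.75% of all windows) nor the heat shock element (0.466%, searched as 3 alternating GAA and TTC units) was present in any of the 8 windows. These are matches of letters and were not tested as binding sites. Sequence more than 250 bases before the start was not searched, nor was any of Egr1 and Ier2. A motif absent here, such as the CArG box, may therefore lie outside the windows.

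Fos, the AP-1 subunit that pairs with Jun proteins, was a monocyte transcript in this marrow. Its summed level in the monocyte gate was 170 counts per 1000000 UMIs (CPM) in Col1a1fspKO (147 to 195, 199 UMIs) and 121 CPM in WT (102 to 143, 141 UMIs). No other gate exceeded 44.0 CPM in Col1a1fspKO or 20.5 CPM in WT, and the cells outside the gates had 55.8 and 41.0 CPM, so the monocyte interval stood clear of the next level in both libraries. Monocytes were 14.7% and 17.2% of the cells and held 54.5% and 65.0% of all Fos UMIs. In immature and mature B cells Fos had 0 UMIs in both libraries, where 3 UMIs would be 7.08 and 6.72 CPM. After every cell was thinned to 2500 UMIs, a Fos UMI was found in 33.3% of monocytes (26.7 to 40.5) in the Col1a1fspKO library and 21.9% (16.4 to 28.2) in WT, and at full depth in 56.2% and 44.3%. At 2500 UMIs it was found in 0 of 104 and 0 of 88 immature and mature B cells, where 3 cells would be 2.88% and 3.41%, a limit on cells with a Fos UMI and not on cells that express Fos. The full-depth medians of these gates were 5706 and 5328 UMIs for monocytes and 3336 and 4132.5 UMIs for B cells.

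Junb, the AP-1 subunit that often opposes Jun, was spread over more gates than Fos. Its level was 154 CPM (133 to 178) in Col1a1fspKO monocytes and 129 CPM (109 to 151) in WT monocytes. Immature and mature B cells had 153 CPM (118 to 196) in the Col1a1fspKO library and 73.9 CPM (50.8 to 104) in WT, and T and natural killer cells had 112 and 71.7 CPM. The order of these 3 gates at the top was the same in both libraries, but the monocyte interval cleared that of the B cells in WT only. Jun itself was scarce, with 110 and 89 UMIs in all, and no neighbouring gates in its order had separate intervals. It stood at 28.3 CPM (14.6 to 49.5) and 20.1 CPM (9.21 to 38.2) in immature and mature B cells and at 14.2 CPM (7.77 to 23.8) and 20.2 CPM (12.7 to 30.7) in pro-B and pre-B cells, while each of the 4 neutrophil gates held 0 to 3 UMIs. Fosb, a further Fos family member, had 11 UMIs in Col1a1fspKO and 5 in WT over all cells and was too rare to rank by cell type.

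Egr1, a zinc finger factor induced by antigen receptor and growth factor signals, was rare, with 27 and 18 UMIs in all, and its largest count in a gate was in immature and mature B cells. They held 8 UMIs (18.9 CPM, 8.15 to 37.2) in Col1a1fspKO and 11 UMIs (24.6 CPM, 12.3 to 44.1) in WT. T and natural killer cells held 5 and 2 UMIs, erythroid cells 3 and 3, preneutrophils 2 and 0, pro-B and pre-B cells 1 and 1, and cells outside the gates 7 and 1. Monocytes held 1 and 0 UMIs, and the immature, maturing and mature neutrophil gates held 0 in both libraries. Egr1 was also concentrated in few cells: a single T or natural killer cell carried all 5 UMIs of that gate in Col1a1fspKO, and single B cells carried up to 5 and 4.

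Dusp1, which dephosphorylates and shuts off MAP kinases, had its highest level in mature neutrophils, at 70.3 CPM (49.2 to 97.3) in the Col1a1fspKO library and 58.7 CPM (35.3 to 91.6) in WT. Erythroid cells had 46.9 CPM (35.8 to 60.4) and 33.6 CPM (24.8 to 44.6). Erythroid cells thus combined a high Dusp1 level with low levels of 4 other members: Zfp36 stood at 3.91 and 2.80 CPM, Ier2 at 27.4 and 30.8 CPM, Junb at 18.8 and 11.2 CPM and Fos at 12.5 and 0.700 CPM. Plasmacytoid dendritic cells had 0 Dusp1 UMIs in both libraries, where 3 UMIs would be 21.6 and 25.6 CPM.

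Ier2, a small nuclear protein gene of the early response, had its highest levels in the monocyte and neutrophil gates. It ranged from 154 to 205 CPM over the monocyte gate and the 3 later neutrophil gates of both libraries and was 163 and 148 CPM in preneutrophils. Granulocyte-monocyte progenitors stood at 107 CPM in both libraries, and T and natural killer cells at 140 CPM (94.4 to 200, 30 UMIs) in Col1a1fspKO and 41.0 CPM (11.2 to 105, 4 UMIs) in WT. Both B cell gates, erythroid cells and plasmacytoid dendritic cells stayed at or below 64.9 CPM. Plasmacytoid dendritic cells had 0 and 2 Ier2 UMIs. Zfp36, or tristetraprolin, which destabilizes AU-rich mRNAs such as that of tumour necrosis factor, was highest in monocytes at 92.9 CPM (76.3 to 112) and 89.3 CPM (72.9 to 108), and lowest among the gates with at least 4 UMIs in both libraries in erythroid cells.

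Btg2, which recruits the deadenylase complex and restrains proliferation, was most abundant in gates with little Ier2. Its level was 483 CPM (374 to 613) in Col1a1fspKO plasmacytoid dendritic cells and 290 CPM (201 to 405) in WT, and 378 CPM (321 to 441) and 298 CPM (249 to 353) in immature and mature B cells. Granulocyte-monocyte progenitors had the lowest level in both libraries, at 25.2 CPM (13.01 to 44.0) and 10.8 CPM (4.35 to 22.3). The plot of levels by cell type shows the 3 patterns side by side: Fos and Zfp36 peaked in monocytes, Ier2 was high in the monocyte and neutrophil gates and Btg2 was highest in B and plasmacytoid dendritic cells.

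**Figure D1:**
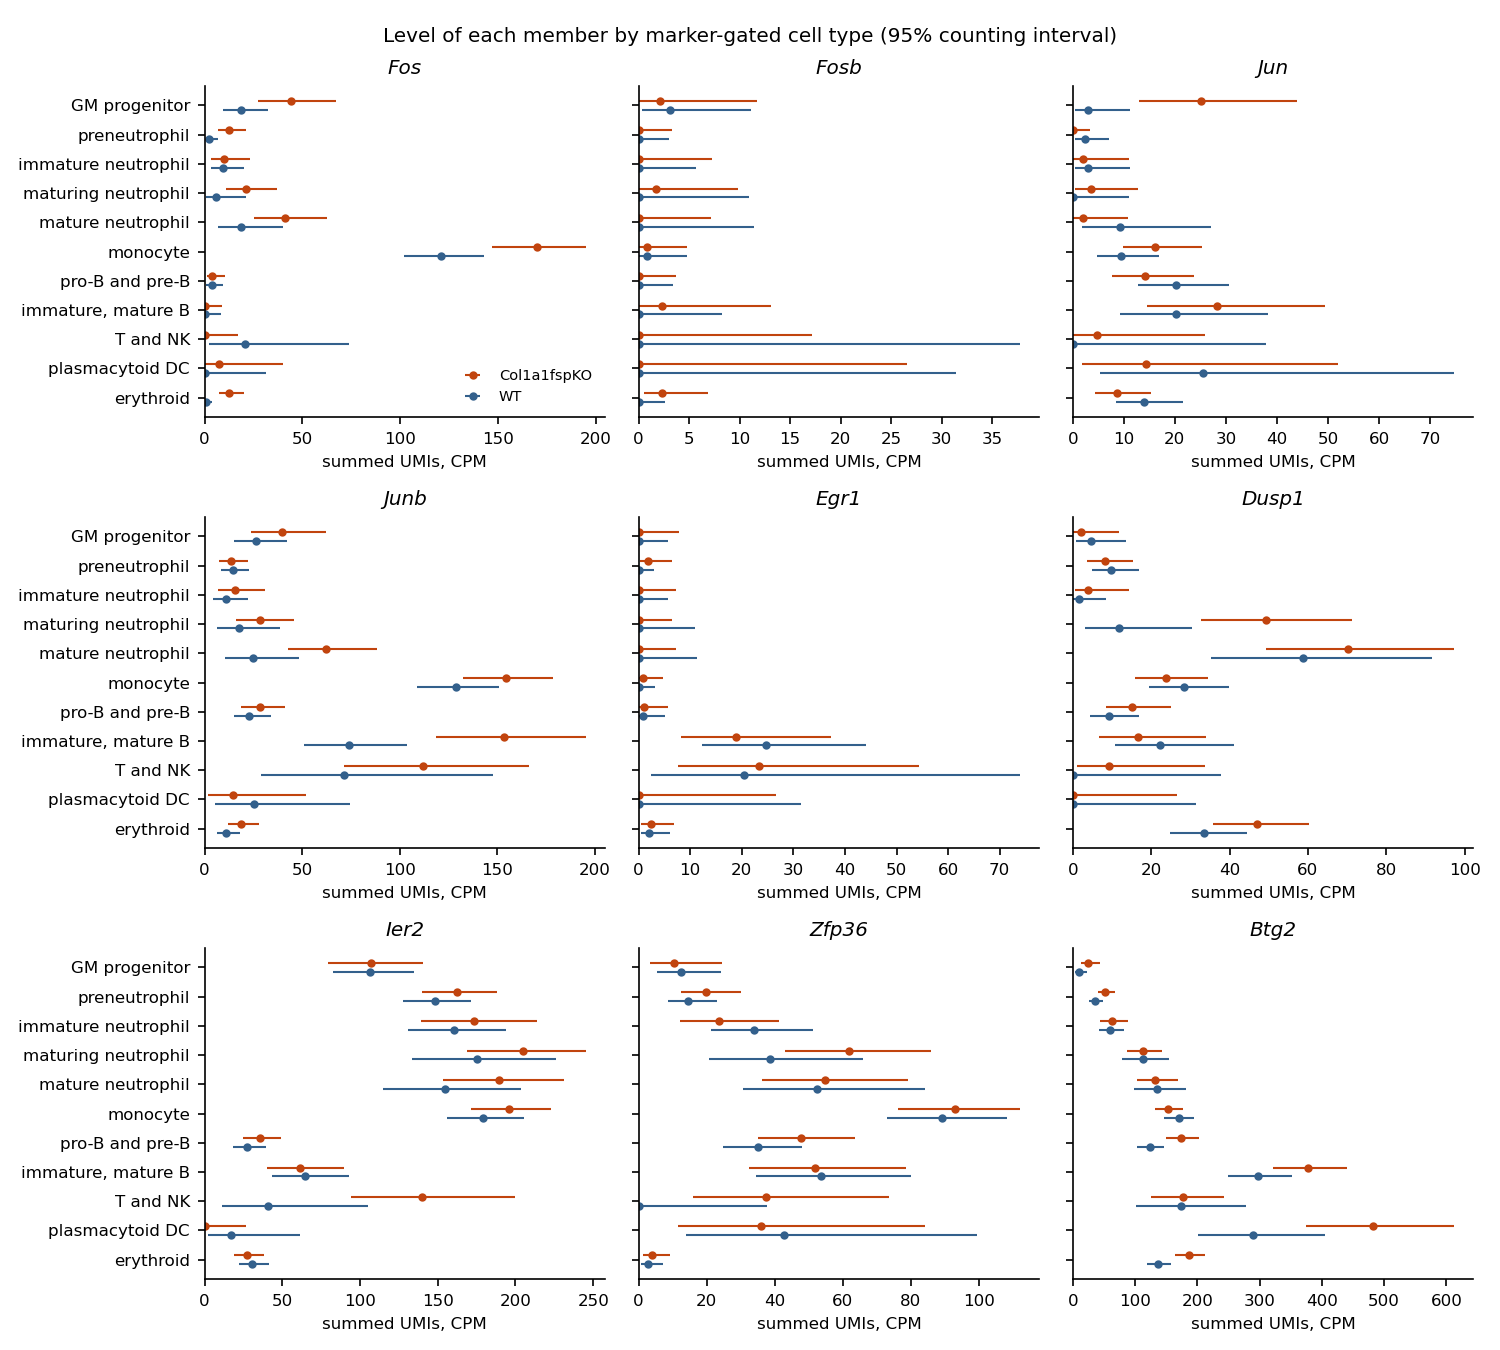
Summed level of each of the 9 listed genes (x axis, CPM, linear from 0, with a separate scale per panel) in the 11 gated cell types (y axis) for Col1a1fspKO and WT, each point with its 95% counting interval from 1 library. Fos reached 170 and 121 CPM in monocytes and 0 in immature and mature B cells, while Btg2 reached 483 and 290 CPM in plasmacytoid dendritic cells.

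To set these levels against the rest of the transcriptome, each gate was compared with all other gated cells, and a gene was counted when its CPM was at least 2-fold apart in the same direction in both libraries. Of the 9 listed genes, 7 had the minimum of 50 UMIs over the gated cells, and Fosb and Egr1 did not. In monocytes 3 of the 7 were higher (Fos, Junb and Zfp36), where 10.9% of the 9386 genes tested were. Fos was 10.8-fold and 21.3-fold higher there, Junb 4.03-fold and 5.55-fold, and Zfp36 3.07-fold and 3.82-fold, in Col1a1fspKO and WT. In immature and mature B cells Jun and Btg2 were higher (2 of 7, against 11.3% of genes) and Fos was lower (against 6.36%). Dusp1 alone was higher in mature neutrophils (1 of 7, against 4.87%) and in erythroid cells (1 of 7, against 8.91%), and Btg2 alone in plasmacytoid dendritic cells (1 of 7, against 11.7%). In all, 8 pairs of gene and gate were higher and 23 were lower.

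The lower pairs were mostly in immature myeloid and erythroid gates. In preneutrophils 6 of 7 genes were lower, all but Ier2, where 23.6% of all genes were. In immature neutrophils 5 of 7 were lower, all but Ier2 and Zfp36, against 26.2%. In erythroid cells Fos, Junb, Ier2 and Zfp36 were lower (4 of 7, against 23.8%), and in granulocyte-monocyte progenitors Dusp1, Zfp36 and Btg2 (3 of 7, against 6.48%). Fos and Ier2 were lower in pro-B and pre-B cells (2 of 7, against 11.8%), Junb in maturing neutrophils (1 of 7, against 24.4%) and Ier2 in plasmacytoid dendritic cells (1 of 7, against 3.84%). None of the 7 was higher in preneutrophils (2.16% of all genes were), immature neutrophils (2.77%), maturing neutrophils (4.62%), granulocyte-monocyte progenitors (5.76%) or pro-B and pre-B cells (19.3%). None was lower in monocytes (12.7%) or mature neutrophils (22.7%), and in T and natural killer cells none was higher (7.42%) or lower (3.02%). Some calls turned with the scaling. With the 20 most abundant genes left out of the totals Ier2 was at least 2-fold higher in all 4 neutrophil gates of both libraries, with log2 differences from 1.03 to 1.49, and Btg2 was no longer 2-fold lower in immature neutrophils (−0.57 and −0.28).

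Along the neutrophil gates the genes separated from each other. Dusp1 had 2 UMIs (3.95 CPM) in immature and 36 UMIs (70.3 CPM) in mature neutrophils of Col1a1fspKO, and 1 UMI (1.54 CPM) and 19 UMIs (58.7 CPM) in WT. The mature over immature ratio of Dusp1 was 17.8 (4.59 to 153) and 38.1 (6.05 to 1582), so its interval excluded 1 in both libraries although its size is poorly fixed. Btg2 was 2.10-fold (1.36 to 3.31) and 2.26-fold (1.44 to 3.57) higher in mature than in immature neutrophils. Fos was 4.16-fold (1.53 to 14.1), Junb 3.96-fold (1.79 to 9.94) and Zfp36 2.31-fold (1.14 to 4.99) higher in Col1a1fspKO, while their WT ratios of 2.004, 2.29 and 1.55 had intervals that include 1. Ier2 had ratios of 1.09 (0.809 to 1.47) and 0.963 (0.673 to 1.36), with intervals that include 1. The 10 monocyte markers summed to 224.0 CPM in the 18 mature neutrophils with a Fos UMI and 82.3 CPM in those without in Col1a1fspKO, and to 2122 CPM in 4 cells and 263 CPM in WT. The part of these transcripts in the Fos values was not tested.

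Within the monocyte gate, cells were divided at the median of 4 of the gate's own markers, here called late markers (Clec4a1, Clec4a3, Wfdc17 and Cx3cr1). This division was added after the data were seen, and the monocyte subtype above the median was not tested. Junb was 2.41-fold (1.75 to 3.37) higher above the median in Col1a1fspKO and 1.42-fold (1.02 to 1.99) higher in WT. Dusp1 was 2.28-fold (0.984 to 5.73) and 4.45-fold (1.94 to 11.4) higher. Fos did not follow this division, with 186 against 154 CPM in Col1a1fspKO (ratio 1.21, 0.906 to 1.61) and 110 against 129 CPM in WT (0.857, 0.598 to 1.22). Btg2 was 2.01-fold (1.505 to 2.71) higher above the median in WT and 0.946-fold (0.697 to 1.28) in Col1a1fspKO.

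Because Btg2 is known as a brake on division, cells with at least 2 UMIs of the 5 cell cycle genes Mki67, Top2a, Birc5, Ccnb1 and Cdk1, also chosen after the data were seen, were compared with the other cells of their gate. In pro-B and pre-B cells Btg2 stood at 110 CPM with and 677 CPM without cycle UMIs in Col1a1fspKO, and at 93.6 and 406 CPM in WT. The level without cycle UMIs was 6.16-fold (4.50 to 8.41) and 4.33-fold (2.93 to 6.31) higher. In immature and mature B cells the same comparison gave 1.55-fold (1.10 to 2.19) and 2.57-fold (1.78 to 3.76), and in monocytes 1.45-fold (0.994 to 2.16) and 3.17-fold (1.90 to 5.66). Erythroid cells showed the opposite order, with 201 CPM with and 43.1 CPM without cycle UMIs in Col1a1fspKO and 153 and 18.3 CPM in WT, where the levels without cycle UMIs rest on 5 and 3 UMIs. The sets differed in depth, with medians of 7039 and 2900 UMIs in Col1a1fspKO pro-B and pre-B cells. When cells were thinned to 2500 UMIs and divided by at least 1 cycle UMI, the ratio of Btg2 with over without cycle UMIs was 0.333 (0.215 to 0.513) and 0.405 (0.231 to 0.723) in pro-B and pre-B cells and 0.753 (0.478 to 1.16) and 0.548 (0.335 to 0.877) in immature and mature B cells. In thinned erythroid cells the level was 288 CPM with and 0 CPM without cycle UMIs in Col1a1fspKO and 205 and 34.8 CPM in WT. Other members also had higher levels without cycle UMIs: Zfp36 was 2.38-fold (1.09 to 4.77) and 2.53-fold (1.003 to 5.65) higher without cycle UMIs in pro-B and pre-B cells, and Jun, Junb and Ier2 were 11.4-fold, 6.33-fold and 2.89-fold higher there in WT, while their intervals in Col1a1fspKO included 1. In preneutrophils Btg2 had ratios of 0.952 (0.514 to 1.70) and 1.63 (0.802 to 3.16). Ier2 in preneutrophils was 1.38-fold (1.01 to 1.88) and 1.43-fold (1.02 to 1.99) higher without cycle UMIs.

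**Figure D2:**
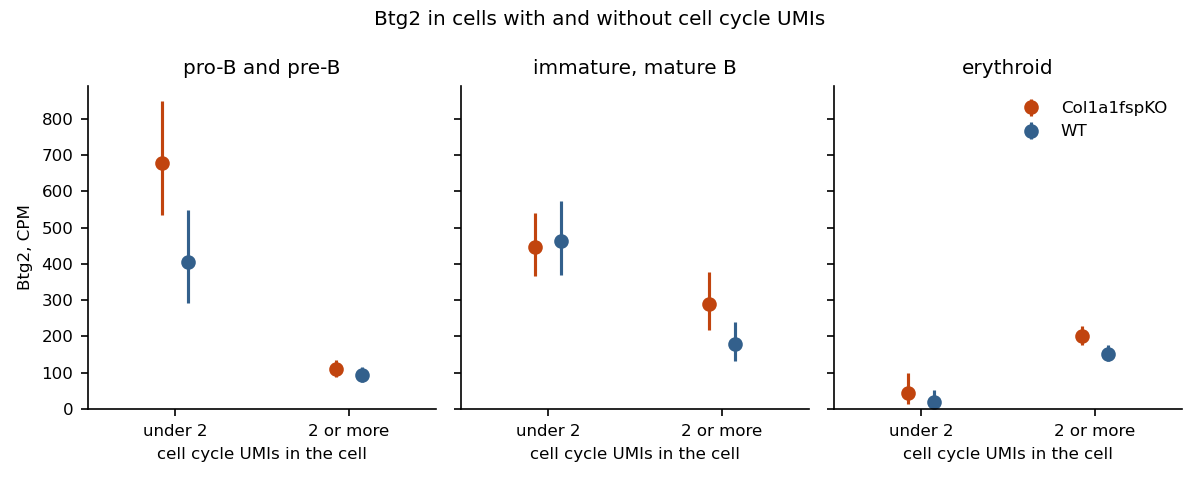
Btg2 level (y axis, CPM, linear from 0) in cells with under 2 and with 2 or more UMIs of 5 cell cycle genes (x axis) in 3 gates, for Col1a1fspKO and WT, each point with its 95% counting interval. In both B cell gates the level was lower with cycle UMIs (677 to 110 CPM in Col1a1fspKO pro-B and pre-B cells), and in erythroid cells it was higher (43.1 to 201 CPM).

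The comparison between genotypes asks whether the genes of the early response differ in marrow that holds Col1a1-deleted Fsp1-lineage cells. Over all cells Fos had 365 UMIs (42.2 CPM) in Col1a1fspKO and 217 UMIs (25.2 CPM) in WT, a ratio of 1.68 (1.41 to 1.99). Junb had 489 and 348 UMIs, a ratio of 1.40 (1.22 to 1.61), and Dusp1 had 214 and 152 UMIs, a ratio of 1.40 (1.14 to 1.74). Btg2 was 139 and 114 CPM, a ratio of 1.22 (1.12 to 1.33), and Ier2 was 119 and 106 CPM, a ratio of 1.12 (1.03 to 1.23). The intervals of these 5 of the 7 genes with at least 50 UMIs lay above 1, where 7.12% of the 9725 genes with at least 50 UMIs over both libraries had such an interval and 12.4% had one below 1. Zfp36 at 1.15 (0.986 to 1.35), Jun at 1.23 (0.924 to 1.65), Egr1 at 1.496 (0.794 to 2.88) and Fosb at 2.19 (0.703 to 8.06) were also higher in Col1a1fspKO, with intervals that include 1.

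Of the 7 genes with at least 50 UMIs over both libraries, 1 (Fos) was at least 1.5-fold higher in Col1a1fspKO and 0 were at least 1.5-fold lower, where 3.003% and 2.93% of the 9725 genes tested were. All 7 were above a ratio of 1, as were 41.6% of all genes tested. The median log2 ratio of the 7 was 0.30, against −0.04 over all genes tested. With cells thinned to 2500 UMIs in a single random draw the log2 ratio of Jun was −0.24 and that of Egr1 −0.16, while Fos was at 0.81. Above the shared UMI minimum Jun was at 0.31 and Egr1 at 0.60. The direction of these 2 sparse genes is thus not fixed, and the cause was not tested. The summed 9 genes gave 439 and 351 CPM, a ratio of 1.25 (1.19 to 1.31). Of the summed UMIs, Ier2 and Btg2 held 1032 and 1200 of 3794 in Col1a1fspKO and 916 and 980 of 3024 in WT. The sum over all cells thus mostly counts Ier2 and Btg2. The plot of the genes among all genes shows each of the 7 to the right of a log2 ratio of 0, with Fos past the 1.5-fold line. With 1 library per genotype these values describe 2 pools of mice and not the genotypes.

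**Figure D3:**
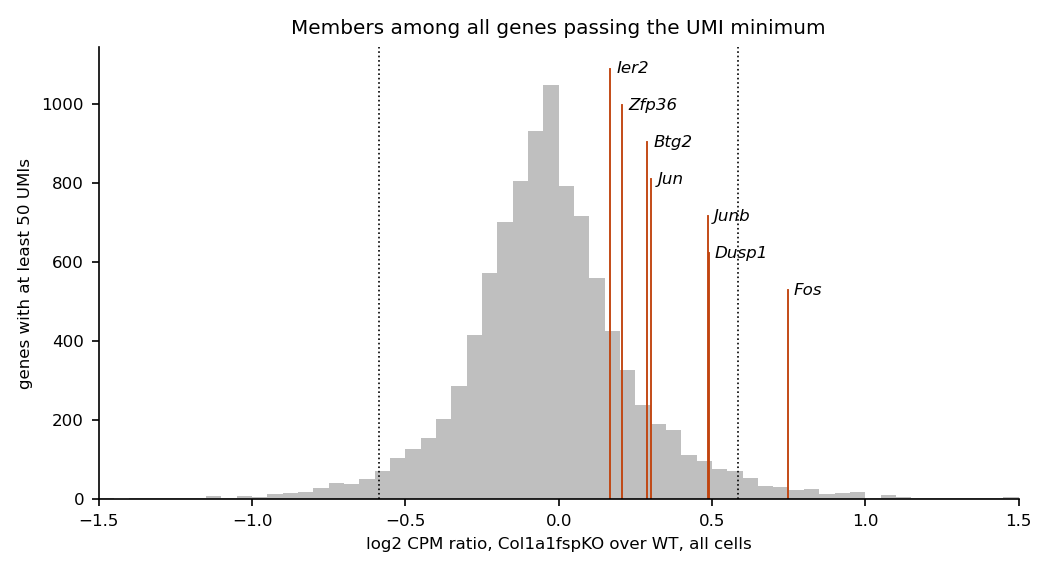
Number of genes (y axis) by log2 CPM ratio between Col1a1fspKO and WT, summed over all cells (x axis), for the 9725 genes with at least 50 UMIs, with a vertical line for each of the 7 members that reached this minimum and dotted lines at 1.5-fold. The members lie at or above the log2 ratio of Ier2 (0.17), and Fos (0.75) alone passes the dotted line.

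The mix of cell types differed between the libraries, with maturing and mature neutrophils at 11.8% and 10.8% of cells in Col1a1fspKO and 7.61% and 7.10% in WT. Over the 11 gates, without the cells outside them, the ratios were 1.69 for Fos, 1.46 for Junb, 1.37 for Dusp1, 1.26 for Btg2, 1.16 for Ier2, 1.20 for Zfp36 and 1.02 for Jun. With each of these gates given the same weight in both libraries, they were 1.64 for Fos, 1.39 for Junb, 1.27 for Dusp1, 1.21 for Btg2, 1.11 for Ier2, 1.13 for Zfp36 and 1.06 for Jun. In the cells outside the gates Jun had 23 and 11 UMIs, a ratio of 1.66 (0.775 to 3.76). Within the gates the summed 9 genes had a ratio above 1 in all 11 gates. The lowest was 1.05 (0.837 to 1.31) in immature neutrophils and the highest 1.54 (1.03 to 2.36) in T and natural killer cells. Of the 11 intervals, 8 lay above 1, and no matching count for sums of other genes is given here. In Col1a1fspKO plasmacytoid dendritic cells Btg2 alone held 67 of the 77 summed UMIs.

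**Figure D4:**
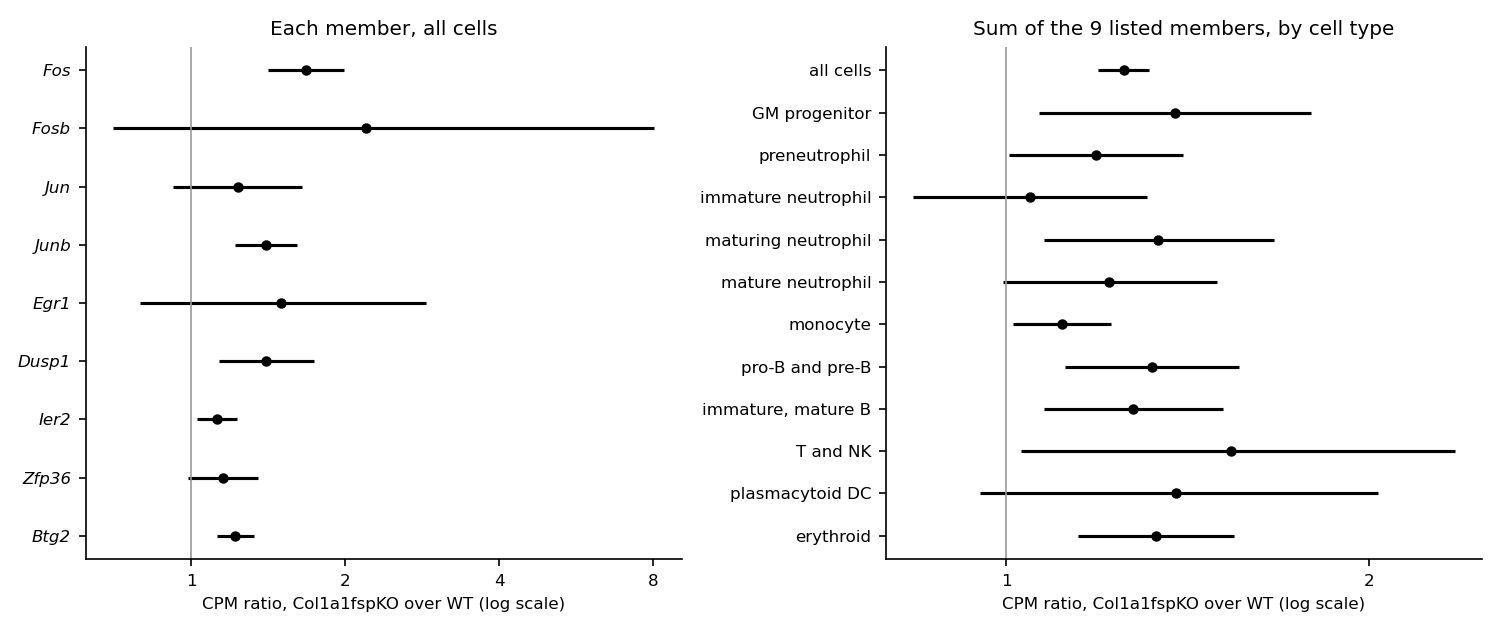
CPM ratio of Col1a1fspKO over WT on a log axis for each listed gene over all cells (left) and for the 9 listed genes summed, by gated cell type (right), with 95% counting intervals and a line at 1. All points lie above 1, and the summed ratio over all cells was 1.25. Ier2 and Btg2 held most of the summed UMIs over all cells.

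Gate by gate, an interval above 1 for a gene with at least 10 UMIs was found for 13 of 60 pairs of gene and gate, and an interval below 1 for none, where 3.15% to 7.38% of the genes of a gate had an interval below 1. In granulocyte-monocyte progenitors it was found for 2 of 6 members (Fos and Jun), against 2.97% of genes there, in immature and mature B cells for 2 of 7 (Junb and Btg2), against 3.61%, and in erythroid cells for 2 of 6 (Fos and Btg2), against 3.45%. Fos was the single member in preneutrophils (1 of 6, against 4.82%) and monocytes (1 of 7, against 3.77%). Dusp1 was the single member in maturing neutrophils (1 of 6, against 3.52%) and Junb in mature neutrophils (1 of 6, against 4.26%). Btg2 was the single member in pro-B and pre-B cells (1 of 6, against 4.74%) and plasmacytoid dendritic cells (1 of 2, against 2.72%), and Ier2 in T and natural killer cells (1 of 3, against 3.96%). In immature neutrophils 0 of 5 members had such an interval, against 2.59%.

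Fos was higher in Col1a1fspKO in each of the 7 gates that held at least 10 Fos UMIs over both libraries, and 4 intervals lay above 1. In monocytes the ratio was 1.40 (1.12 to 1.75). In granulocyte-monocyte progenitors 21 and 12 UMIs gave 2.38 (1.12 to 5.30), in preneutrophils 14 and 3 UMIs gave 5.21 (1.45 to 28.3), and in erythroid cells 16 and 1 UMIs gave 17.9 (2.77 to 749). The values in progenitors, preneutrophils and erythroid cells rest on few cells. In Col1a1fspKO the 21 progenitor UMIs, the 14 preneutrophil UMIs and the 16 erythroid UMIs each came from 8 cells. A single cell held up to 7 in progenitors, 6 in preneutrophils and 7 in erythroid cells. The progenitor ratio ranged from 1.26 to 4.17 over 10 alternatives. The 10 monocyte markers summed to 1228 CPM in those 8 preneutrophils and 162 CPM in the preneutrophils without Fos, and to 1355 and 126 CPM in WT. In the 8 erythroid cells they summed to 118 CPM, against 31.8 CPM without Fos and 5601 CPM in Col1a1fspKO monocytes with Fos. In the 8 progenitors they summed to 786 CPM, against 711 CPM without Fos. A Csf1r UMI was found in 0 of the 8 erythroid cells, 2 of the 8 preneutrophils and 3 of the 8 progenitors. Of the 108 Col1a1fspKO monocytes with Fos, 63 had a Csf1r UMI. The part of these monocyte transcripts in the Fos ratios was not tested.

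The other AP-1 genes varied more from gate to gate. Junb was higher in Col1a1fspKO in 9 of 10 gates with at least 10 UMIs, with intervals above 1 in immature and mature B cells (65 and 33 UMIs, 2.08, 1.35 to 3.26) and mature neutrophils (32 and 8 UMIs, 2.53, 1.14 to 6.35). A single Col1a1fspKO B cell carried 13 of the 65 Junb UMIs, and with Louvain clusters in place of gates the log2 ratio in these cells was 0.40, against 1.05 with gates. Jun was higher in 3 of 5 gates and its interval was above 1 in granulocyte-monocyte progenitors alone, where 12 and 2 UMIs gave 8.15 (1.81 to 75.0). In immature and mature B cells Jun was 1.41 (0.544 to 3.78) with gates, and its log2 ratio turned from 0.49 to −1.29 with Louvain clusters. Egr1 had 10 UMIs in 1 gate only, the immature and mature B cells, at 0.767 (0.268 to 2.09).

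Among the regulators, Dusp1 was higher in 4 of 7 gates. Maturing neutrophils held 28 and 4 Dusp1 UMIs, a ratio of 4.16 (1.46 to 16.3), while mature neutrophils had 1.20 (0.669 to 2.21) and monocytes 0.843 (0.491 to 1.44). With Louvain clusters in place of gates the log2 ratio of Dusp1 in maturing neutrophils was 0.32, against 2.06 with gates. Btg2 was higher in 9 of 11 gates, with intervals above 1 in pro-B and pre-B cells (1.42, 1.12 to 1.79), immature and mature B cells (1.27, 1.002 to 1.61), plasmacytoid dendritic cells (1.67, 1.09 to 2.60) and erythroid cells (1.36, 1.12 to 1.65), and not in monocytes (0.903, 0.734 to 1.11). The median depth of pro-B and pre-B cells was 5253.5 UMIs in Col1a1fspKO and 8309 UMIs in WT. Above the shared UMI minimum, which removed Col1a1fspKO cells only, the log2 ratio of Btg2 in these cells was 0.16, against 0.50 with all cells. Ier2 was higher in 8 of 10 gates with an interval above 1 in T and natural killer cells (30 and 4 UMIs, 3.42, 1.20 to 13.3). That gate held 44 and 22 cells, and its T cells and natural killer cells were not told apart. Zfp36 was higher in 5 of 9 gates and no interval excluded 1.

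In single cells, 64.6% of Col1a1fspKO cells (61.9 to 67.1) and 57.2% of WT cells (54.3 to 60.1) had a UMI of at least 1 of the 9 genes at 2500 UMIs per cell, and 85.8% and 83.1% at full depth. At least 3 of the genes were found in 7.56% (6.19 to 9.13) and 5.39% (4.17 to 6.84) of cells. Monocytes had the largest share with at least 3, at 25.5% (19.5 to 32.3) in the Col1a1fspKO library and 13.4% (9.04 to 18.9) in WT. At full depth these monocyte shares were 64.6% and 53.2%. In immature and mature B cells the order of the libraries was the other way, at 4.81% (1.58 to 10.9) and 12.5% (6.41 to 21.3).

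**Figure D5:**
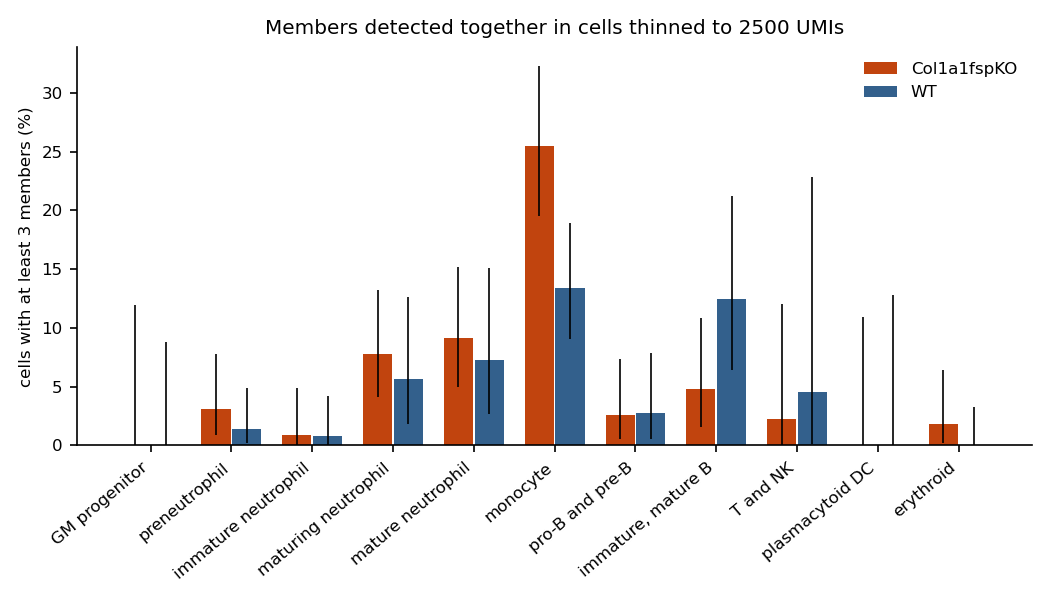
Share of cells with UMIs of at least 3 of the 9 listed genes (y axis, percent, from 0) in each gate (x axis) after thinning to 2500 UMIs per cell, for Col1a1fspKO and WT, with 95% Clopper-Pearson intervals. The monocyte bars stand at 25.5% and 13.4%, and the intervals of the libraries overlap in each of the other gates.

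Detection of one member beside another was compared inside gates. In thinned cells Junb was found in 37.5% of Col1a1fspKO monocytes with a Fos UMI (25.7 to 50.5) and 25.8% without (18.5 to 34.3), and in 20.5% (9.80 to 35.3) and 27.4% (20.6 to 35.1) in WT, so the order differed between libraries and the intervals overlapped. In immature and mature B cells Ier2 was found in 24.0% (9.36 to 45.1) of Col1a1fspKO cells with a Junb UMI and 7.59% (2.84 to 15.8) without, and in 27.8% (9.69 to 53.5) and 8.57% (3.21 to 17.7) in WT, again with overlapping intervals. Zfp36 in these B cells was found in 1 of 25 cells with a Junb UMI and 19.0% (11.03 to 29.4) without in Col1a1fspKO, and in 38.9% (17.3 to 64.3) and 10.0% (4.12 to 19.5) in WT. Over 2209 cells centred by gate and library, the correlation of each gene with the sum of the others ranged from 0.0441 to 0.0785, which in counts this sparse is no finding. The 1% of cells with the most Fos UMIs carried 20.8% of them in Col1a1fspKO and 20.3% in WT, and the same share was 7.07% and 7.31% for the more abundant Ier2 and 30.9% and 36.0% for Jun.

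Related genes of the same pathways were compared over all cells in 4 lists. Of 17 other immediate early transcription factors 10 had at least 50 UMIs. Of these 10, 2 were at least 1.5-fold higher in Col1a1fspKO and 0 were lower, against 3.003% and 2.93% of all genes tested. Their median log2 ratio was 0.16, against −0.04 over all genes tested. Irf1, an interferon-responsive factor, had a ratio of 1.69 (1.34 to 2.13) and the orphan nuclear receptor Nr4a1 1.53 (0.945 to 2.51). The AP-1 subunit Jund had 1.29 (1.18 to 1.41), Klf6 1.16, Klf2 1.08, Klf4 1.03 and Myc 0.983, and Cebpb, a myeloid factor, was lower at 0.829 (0.788 to 0.873).

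Of 19 feedback and RNA decay regulators 17 passed the minimum and none reached 1.5-fold in either direction, where 3.003% of all genes tested were higher and 2.93% lower. Their median log2 ratio was 0.15 and 13 of the 17 were above a ratio of 1, as were 41.6% of all genes tested. The most abundant were Btg1 at 1.16 (1.10 to 1.22), a paralog of Btg2, Zfp36l2 at 0.983, the NF-κB inhibitor Nfkbia at 0.928, the survival factor Mcl1 at 1.11, the phosphatase Dusp2 at 1.20 (1.06 to 1.37) and Ier5 at 1.10. The 11 upstream kinases and factors all passed, none reached 1.5-fold, and their median log2 ratio was 0.03. Mapk3 stood at 1.001, Mapk14 at 1.09, Rps6ka1 at 1.10, Mapkapk2 at 0.995 and Creb1 at 0.993.

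Of 15 heat shock and ubiquitin genes 12 passed. At least 1.5-fold, 1 was higher in Col1a1fspKO and 0 were lower, against 3.003% and 2.93% of all genes tested. A ratio above 1 was found for 6, against 41.6% of all genes tested, and their median log2 ratio was −0.02. Among them the constitutive chaperone Hspa8 was 1.31-fold (1.27 to 1.35) higher in Col1a1fspKO, while Ubb, which encodes ubiquitin, was at 1.01. The heat shock protein 90 genes Hsp90aa1 and Hsp90ab1 were lower, at 0.807 (0.766 to 0.850) and 0.878 (0.849 to 0.908). Hspe1 stood at 0.968 and Dnaja1 at 1.05.

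Over the 22 points given by 11 gates and 2 libraries, the genes whose profile was most like the mean of the 7 members on the log2(CPM + 10) scale were Susd3 (Pearson r = 0.889), Mcl1 (0.868), Ccl6 (0.823), Gm5150 (0.816) and Ly96 (0.797). The points share libraries and gates and are not independent. Between members the same correlation ran from −0.534 for Ier2 and Btg2 to 0.445 for Fos and Ier2. The single gene most like Fos was the monocyte receptor gene Csf1r (0.879), which is one of the monocyte gate's markers.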

How the data were processed

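Live-sorted bone marrow cells of Col1a1fspKO and WT mice were profiled by 10x Genomics 3′ v2 sc-RNA-seq. The authors deposited a gene by cell table of raw UMI counts for each genotype, from Cell Ranger (version not given in the sources used here) on mm10. The submitters' processing notes also name Seurat 3.5.3. The study's limits of 200 to 7000 genes and 10% mitochondrial UMIs removed no cell. The study states about 1000 cells per sample. The tables list 12760 and 12763 genes, 12312 of them in common, and a gene not listed for a library was counted as 0 there.

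UMI counts were summed over cells per gate and library and given per 1000000 UMIs (CPM) with exact Poisson 95% intervals. Ratios have exact conditional binomial intervals and shares Clopper-Pearson intervals. These cover counting error only, and not the single random draw by which cells were thinned. For fold calls, lower sides under 3 UMIs counted as 3, while printed library ratios use the counted UMIs, and no library ratio was given where both sides had 3 UMIs or fewer. Genes needed 50 UMIs, gates 20 cells per library.

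Each cell went to the lineage with the highest mean marker level, capped at the 90th percentile of positive cells, with at least 3 markers, a score of 0.25 and a lead of 0.1. Stages were the highest standardized score within a lineage. These cutoffs were set after the tables were seen. Marker genes and lists, the members among them, were chosen with earlier results of these data known. Doublets were kept, and Scrublet in scanpy 1.11.5 called 5 per library. Named genes were the members, the list genes past 1.5-fold or among the 6 others with most UMIs, and the genes nearest in profile, of which some are not reported here but stay in the list counts and medians. Cell cycle genes, the late monocyte division and Csf1r were added later. Calculations used Python 3.11.15, scipy 1.17.1 and Seurat 5.3.0 in R 4.3.3, and were tested on simulated data. Alternatives were Louvain clusters, other cell filters, depth, scaling and UMI minima.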

Additional observations from a re-analysis of the deposited data

How the results depend on the processing

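With 1 library per genotype no value has a replicate check and no replicate could be left out. No paired analysis was possible because each genotype had a single library. Depth limits Fosb, Egr1 and Jun most, and the sizes of ratios that rest on under 10 UMIs are poorly fixed. The count of genes at least 1.5-fold higher in Col1a1fspKO was 1 as reported and 2 with cells thinned to 2500 UMIs (Fos and Dusp1), without the 1% of cells with most member UMIs (Fos and Dusp1) and with a minimum of 10 UMIs per gene (Fos and Fosb). It was 1 under the other 9 alternatives. The share of cells with at least 1 member was 85.8% in Col1a1fspKO and 83.1% in WT at full depth, against 64.6% and 57.2% after thinning. The log2 ratio of Fos over all cells stayed between 0.66 and 0.81 over 12 alternatives and that of the summed members between 0.27 and 0.35. That of Jun was −0.24 with thinned cells and that of Egr1 −0.39 as a mean of single cells and −0.16 with thinned cells. Above the shared UMI minimum that of Dusp1 was 0.33, against 0.49, and that of Fos 0.76, against 0.75. The pairs of gene and gate that were 2-fold higher numbered 6 to 12, and those 2-fold lower 17 to 24, over 11 alternatives. With Louvain clusters that of Jun in immature and mature B cells was −1.29, against 0.49. Log2 differences of a gate from the other gated cells also changed sign. With Louvain clusters they were −0.085 for Dusp1 in Col1a1fspKO maturing neutrophils, −0.023 for Btg2 in Col1a1fspKO pro-B and pre-B cells and 0.28 for Ier2 in WT immature and mature B cells. Without the 20 most abundant genes Btg2 was 0.23 in Col1a1fspKO maturing neutrophils and −0.14 in Col1a1fspKO pro-B and pre-B cells, and above a shared UMI minimum it was −0.0074 in the latter. The cause was not tested. The same mix of cell types and the gating of all cells by their best lineage were chosen after seeing the data.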

Other observations

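The ratio of Hspa8 between the libraries was not the same in every gate, in gates chosen after the values over all cells were seen. Hspa8, the constitutive heat shock protein 70 gene, was 2816 CPM in Col1a1fspKO monocytes and 1935 CPM in WT monocytes, a ratio of 1.46 (1.38 to 1.54). In mature neutrophils it was 199 and 358 CPM, a ratio of 0.556 (0.422 to 0.732). Cebpb, which controls monocyte and granulocyte genes, was 1181 and 1524 CPM in monocytes, a ratio of 0.775 (0.722 to 0.832). These values come from 1 library per genotype and cover counting error only.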
